A study of Homo sapiens with 27 samples.

Results

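Transcripts of TXNIP, of the alpha-arrestins ARRDC1, ARRDC2, ARRDC3 and ARRDC4, and of the glucose-sensing transcription factors MLXIP and MLX were followed across 27 RNA sequencing libraries from human cells that lack their own ARID1A. These 7 genes were picked by symbol, with earlier results of these data in view, from count tables of 67130 rows each. The symbols matched 8 rows, because MLXIP was listed under a second identifier that held 0 counts in all 27 libraries. The other 7 rows passed the filter on low counts in both cell lines. The ARID1A protein belongs to the BAF complex, which remodels chromatin, and all 9 groups of 3 libraries carry its knockout. In 6 groups labelled 293T, an embryonic kidney line with the SV40 large T antigen, the knockout cells stably expressed lentiviral ARID1A with the missense change V2084D, G2087E, G2087R or K2025E, or wild-type ARID1A (WT), or were left without it (KO). In 3 groups labelled Huh7, a hepatocellular carcinoma line, they expressed V2084D together with a knockdown of the ubiquitin ligase gene STUB1 (V2084D shSTUB1), V2084D alone, or WT. The labels name neither clones nor separate cultures, so the p-values measure the spread between these libraries, which may be technical. Which contrast guided the choice of genes is not recorded, so the values in the libraries labelled Huh7, and the comparison between the lines that uses them, are given as a description. For these, how many of the 7 genes passed the threshold is stated beside the share of all genes, and nothing is read from it.

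TXNIP is an alpha-arrestin that binds thioredoxin and promotes the removal of glucose transporters from the cell surface, and ARRDC4, a close relative, also lowers glucose uptake. Both are classical targets of MLXIP (MondoA), which pairs with MLX, moves to the nucleus when glucose 6-phosphate builds up and binds carbohydrate response elements made of a pair of E-box-like half-sites. The other alpha-arrestins act as adaptors for ubiquitin ligases of the NEDD4 family. ARRDC3 promotes ubiquitination and trafficking of adrenergic receptors and integrins, ARRDC1 drives the budding of microvesicles with ESCRT-I, and ARRDC2 is less well studied.

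The promoter windows of TXNIP and ARRDC4 are shown because these were the members with the widest range of levels under the Huh7 label and are the textbook targets of MLXIP and MLX. They are RefSeq windows on GRCh38.p14, from 250 bases before to 50 bases after an annotated transcript start, written 5′ to 3′ on the gene's own strand. The TXNIP window shown is chr1:145996530-145996829 (minus strand) and the ARRDC4 window is chr15:97960453-97960752 (plus strand). TXNIP has a second window, chr1:145995695-145995994, which held 0 of the motifs marked below and is not printed. Capitals mark matches, on either strand, to a carbohydrate response element pair (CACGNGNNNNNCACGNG), an E-box (CACGTG) or a CCAAT box (CCAAT, or ATTGG on the other strand).
TXNIP: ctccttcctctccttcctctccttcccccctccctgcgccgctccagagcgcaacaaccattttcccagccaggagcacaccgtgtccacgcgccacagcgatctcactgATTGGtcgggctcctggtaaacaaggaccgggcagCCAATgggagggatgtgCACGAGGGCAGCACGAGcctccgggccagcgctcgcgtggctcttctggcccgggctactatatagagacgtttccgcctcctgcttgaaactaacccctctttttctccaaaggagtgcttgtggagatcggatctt
ARRDC4: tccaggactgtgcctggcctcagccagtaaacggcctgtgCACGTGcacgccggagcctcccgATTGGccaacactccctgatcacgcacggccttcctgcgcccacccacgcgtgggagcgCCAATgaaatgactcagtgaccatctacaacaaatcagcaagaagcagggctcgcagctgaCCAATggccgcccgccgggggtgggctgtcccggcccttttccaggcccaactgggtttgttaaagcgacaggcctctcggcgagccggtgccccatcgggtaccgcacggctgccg
The element pair of the TXNIP window reads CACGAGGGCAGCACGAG and begins 88 bases before the start. It was found in 20 of 35116 promoter windows of the same length (0.057%). TXNIP also held CCAAT boxes beginning 140 and 105 bases before the start, and 10.8% of windows held 2 or more. The ARRDC4 window held no such pair, a single E-box (7.26% of windows held at least 1) and 3 CCAAT boxes beginning 187, 128 and 67 bases before the start (3.26% of windows held 3 or more). Of the other members, MLX had an E-box that begins 50 bases before its start. ARRDC1, ARRDC2, ARRDC3, MLX and MLXIP each had a window with 1 CCAAT box, which 34.6% of all windows held at least once. These letter matches say nothing about whether a factor was bound.

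The libraries labelled Huh7 were the deeper ones, with totals of 59124374 to 79915177 counts, while the totals under the 293T label were 33429483 to 55539529 counts. A member had at least 229 and at most 26776 counts in any library. In 293T the ARID1A transcript stood far above KO in every V2084D, G2087E, K2025E and WT library. In G2087R replicates 1 and 2 it had 291 and 324 CPM (counts per 1000000 counts of a library after TMM scaling), near the 117 to 193 CPM of the KO libraries, against 68169 CPM in replicate 3. Under the Huh7 label ARID1A had 342 to 400 CPM in WT and 216 to 271 CPM in V2084D, without overlap. It had 189 to 351 CPM in V2084D shSTUB1. No KO group carries the Huh7 label, so expression from the vector could not be checked there. STUB1 had 67.2 to 84.1 CPM in the V2084D shSTUB1 libraries and 248 to 296 CPM in V2084D. Of 18 liver marker genes, 0 reached a mean of 1 CPM in the libraries labelled Huh7, and their summed level was 2.18 to 5.68 CPM there and 2.93 to 10.7 CPM in those labelled 293T. Albumin (ALB) averaged 0.631 CPM, alpha-fetoprotein (AFP) 0.0121 CPM, and RBP4 and APOH were at 0 in the libraries labelled Huh7. Of 12 genes typical of 293 cells, 11 reached a mean of 1 CPM under both labels, so the liver label is not borne out and the samples are called here by their labels. Their summed level was 458 to 514 CPM in V2084D shSTUB1, 529 to 587.0 CPM in V2084D and 1013 to 1063 CPM in WT of the libraries labelled Huh7. IRS4 alone ranged from 14.5 to 478 CPM over these 9 libraries. Of the 11 genes tested in V2084D minus WT of these libraries, 2 were higher, 4 lower and 5 not called, with a median log2 difference of −0.05. The part of this list in the differences below was not tested.

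TXNIP (ENSG00000265972, GRCh38 chromosome 1, 145992435 to 145996600, minus strand) had the widest range of the 7 genes as a fold under the Huh7 label, at 17.1-fold from lowest to highest library, while in 293T ARRDC3 ranged over 11.0-fold and TXNIP over 5.42-fold. In the libraries labelled Huh7 TXNIP had 124.6, 140.2 and 125.3 CPM in V2084D shSTUB1, 376, 306 and 254 CPM in V2084D, and 23.6, 23.5 and 21.96 CPM in WT. The 3 groups did not overlap, V2084D was the highest, and the knockdown libraries lay between V2084D and WT. TXNIP was 13.5-fold higher in V2084D than in WT (log2 difference 3.76, SE 0.14). With the STUB1 knockdown it was at 0.417 of the V2084D level (log2 difference −1.26, SE 0.12) and still 5.65-fold above WT (log2 difference 2.5, SE 0.13). The SD over 3 libraries was 8.81 CPM in V2084D shSTUB1, 61.5 CPM in V2084D and 0.939 CPM in WT, so the V2084D libraries spread most.

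ARRDC4 (ENSG00000140450, chromosome 15, 97960698 to 97973838, plus strand) had the same order of groups. It had 185, 215 and 196 CPM in V2084D shSTUB1, 390.4, 328 and 266 CPM in V2084D, and 45.5, 43.5 and 38.7 CPM in WT, with no overlap between groups. It was 7.71-fold higher in V2084D than in WT (log2 difference 2.95, SE 0.13) and 4.67-fold higher in V2084D shSTUB1 than in WT (log2 difference 2.22, SE 0.13). Between V2084D shSTUB1 and V2084D the log2 difference was −0.72 (SE 0.13). Per kilobase of exon, the ratio of TXNIP to ARRDC4 was 0.720 to 0.755 in V2084D shSTUB1, 1.05 to 1.08 in V2084D and 0.584 to 0.637 in WT. Per kilobase, the mean level was 86.0 CPM for TXNIP and 80.6 CPM for ARRDC4 in V2084D. The ratio thus differed between the 3 groups without overlap, so the levels of the pair were not proportional.

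**Figure D1:**
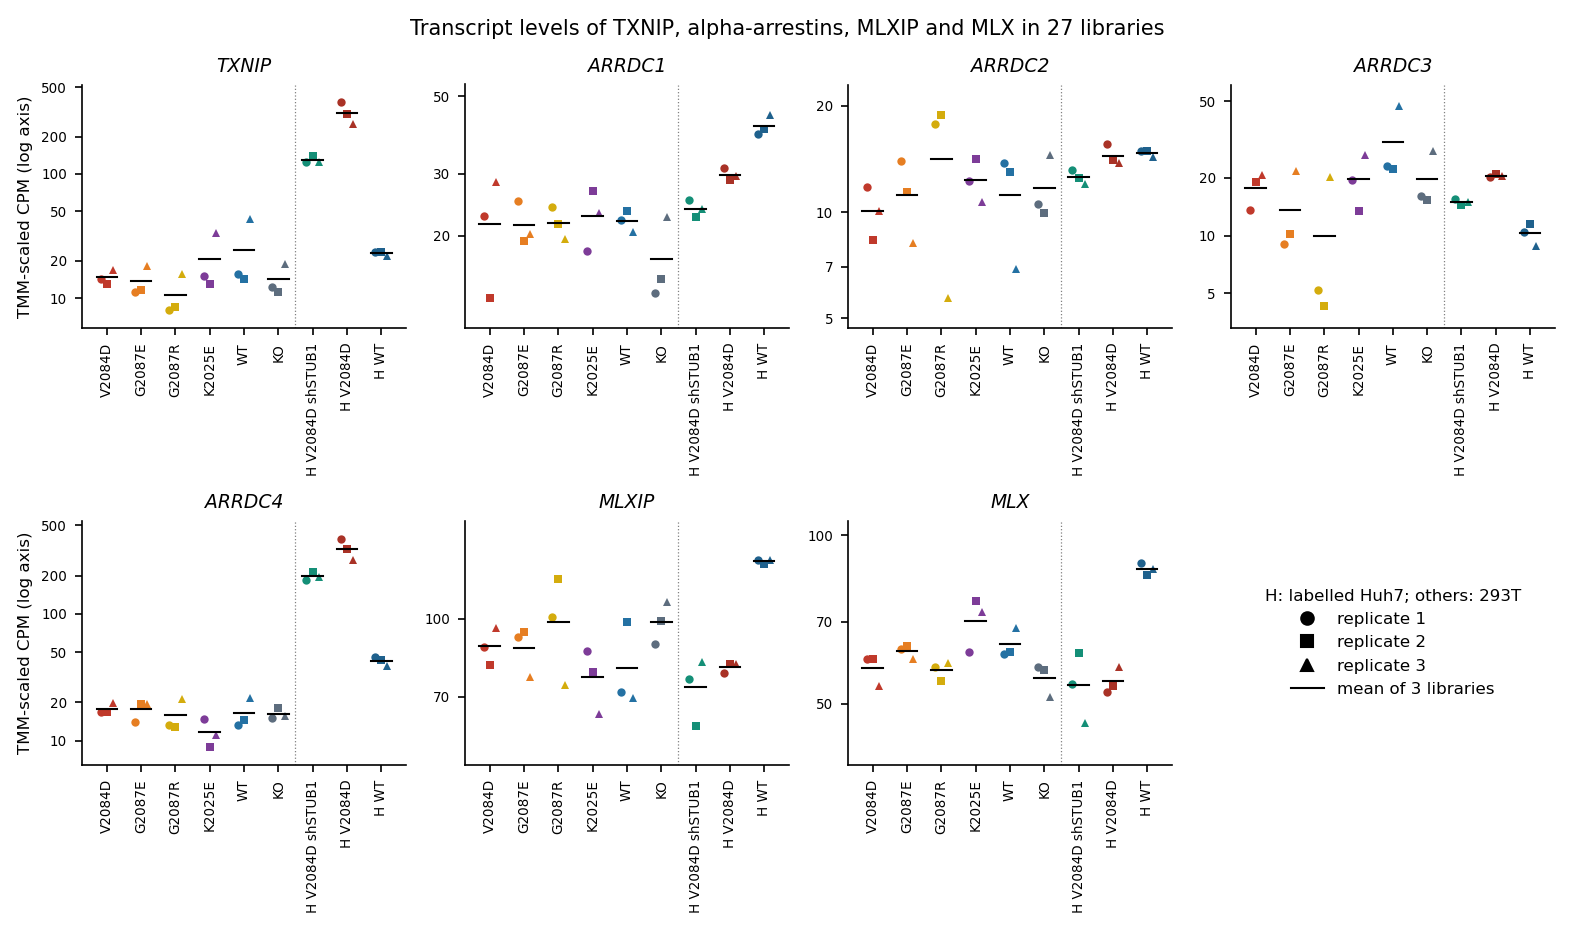
TMM-scaled CPM (log axis) of each member in each of the 27 libraries, by group, with the mean of 3 libraries as a bar and the replicate number as the symbol, where H marks groups labelled Huh7 and the scaling was done within each cell line. TXNIP and ARRDC4 in the groups labelled Huh7 reach 376 and 390.4 CPM in V2084D and lie at 21.96 to 23.6 and 38.7 to 45.5 CPM in WT, while their 293T libraries stay at or below 43.4 and 21.8 CPM.

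ARRDC3 (ENSG00000113369, chromosome 5, 91368724 to 91383359, minus strand) followed the same order at a lower level and with smaller steps. It had 15.5, 14.5 and 14.96 CPM in V2084D shSTUB1, 20.1, 21.0 and 20.5 CPM in V2084D, and 10.4, 11.5 and 8.88 CPM in WT. Its log2 difference was 1.0 (SE 0.11) for V2084D minus WT, −0.46 (SE 0.11) for V2084D shSTUB1 minus V2084D and 0.55 (SE 0.11) for V2084D shSTUB1 minus WT, which was 0.32 with GC and length offsets. ARRDC3 shares 145 exon bases with ARRDC3-AS1 on the opposite strand, whose level was 1.86 to 3.71 CPM in these libraries, and the strand setting of the authors' counting is not given in the sources used here.

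The remaining alpha-arrestins did not follow TXNIP. ARRDC1 (ENSG00000197070, chromosome 9, 137605654 to 137615360, plus strand) had 25.3, 22.6 and 23.8 CPM in V2084D shSTUB1, 31.2, 28.8 and 29.5 CPM in V2084D, and 39.1, 40.4 and 44.3 CPM in WT. It was thus highest in WT and lowest with the knockdown, with log2 differences of −0.47 (SE 0.075) for V2084D minus WT and −0.32 (SE 0.075) for V2084D shSTUB1 minus V2084D. ARRDC2 (ENSG00000105643, chromosome 19, 18001132 to 18014102, plus strand) had 13.2, 12.5 and 12.05 CPM in V2084D shSTUB1, 15.6, 14.0 and 13.8 CPM in V2084D, and 14.9, 14.9 and 14.3 CPM in WT. V2084D and WT overlapped for ARRDC2, with a log2 difference of −0.022 (SE 0.092), and the knockdown libraries lay below both groups with a log2 difference of −0.20 (SE 0.092) from V2084D. ARRDC1 shares 29 exon bases with ARRDC1-AS1 and ARRDC2 shares 442 with AC020904.3, both on the opposite strand, so their reads may not be told apart. ARRDC1 also shares 183 exon bases (4.8%) with AL590627.2 on the same strand. ARRDC2 had the narrowest range of the 7 genes in the libraries labelled Huh7, at 1.29-fold from lowest to highest library.

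The regulators MLXIP and MLX were lower in both V2084D groups than in WT, opposite in sign to TXNIP and ARRDC4. MLXIP (ENSG00000175727, chromosome 12, 122078722 to 122147347, plus strand) had 76.0, 61.4 and 81.9 CPM in V2084D shSTUB1, 78.1, 81.5 and 81.3 CPM in V2084D, and 130.7, 128.6 and 130.6 CPM in WT. Its log2 difference was −0.69 (SE 0.096) for V2084D minus WT and −0.14 (SE 0.096) for V2084D shSTUB1 minus V2084D, where the libraries overlapped. MLX (ENSG00000108788, chromosome 17, 42567068 to 42573239, plus strand) had 54.1, 61.5 and 46.3 CPM in V2084D shSTUB1, 52.4, 53.9 and 58.2 CPM in V2084D, and 89.2, 84.8 and 86.9 CPM in WT. Its log2 difference was −0.67 (SE 0.097) for V2084D minus WT and −0.023 (SE 0.096) for V2084D shSTUB1 minus V2084D. MLX shares 770 exon bases, 18.1% of its exons, with PSMC3IP on the opposite strand. PSMC3IP had 39.9 to 43.1 CPM in V2084D shSTUB1, 47.1 to 57.1 CPM in V2084D and 33.8 to 34.4 CPM in WT, a difference opposite in sign to that of MLX. MLXIPL (ChREBP), the MLXIP relative best known from liver, had 16.0 to 18.8 CPM in V2084D shSTUB1, 22.9 to 25.6 CPM in V2084D and 16.4 to 18.5 CPM in WT.

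**Figure D2:**
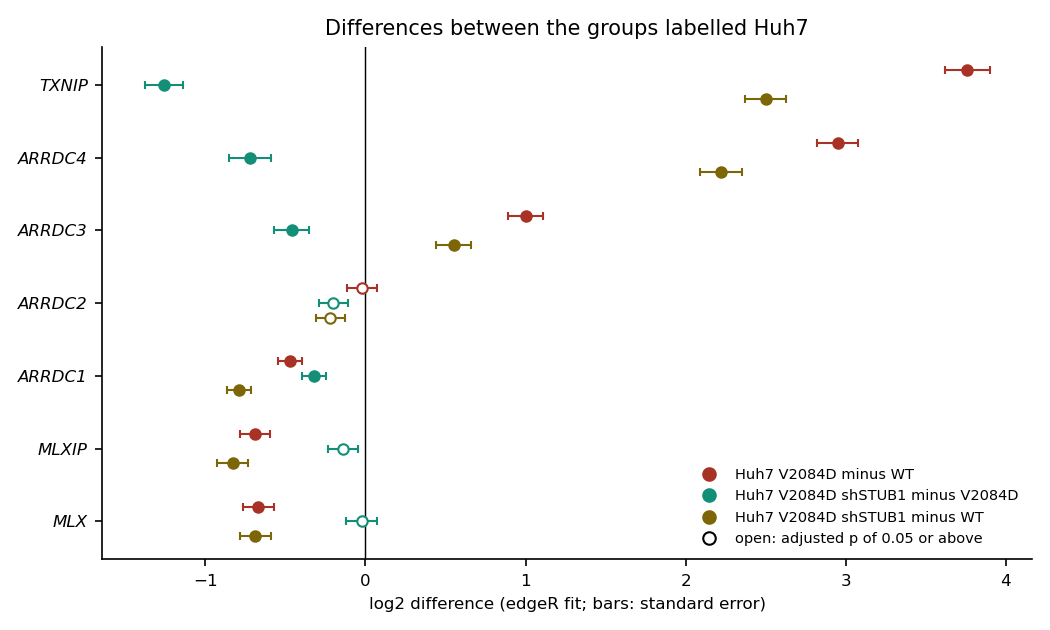
Log2 differences of the 7 members between the groups labelled Huh7, from the edgeR fit, with standard errors as bars and open points where the adjusted p was 0.05 or above. TXNIP, ARRDC4 and ARRDC3 lie right of 0 in both comparisons with WT (3.76, 2.95 and 1.0 for V2084D minus WT), and ARRDC1, MLXIP and MLX lie left of 0 there.

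Counted over the 7 genes, 6 passed an edgeR adjusted p of 0.05 in V2084D minus WT of the libraries labelled Huh7, 3 higher and 3 lower, where 42.0% of the 22510 genes tested passed (22.0% higher and 20.0% lower). In V2084D shSTUB1 minus V2084D 4 passed, all lower, where 21.5% of all genes passed (10.8% higher and 10.8% lower). Without V2084D replicate 1 this count was 3, as ARRDC1 did not pass. In V2084D shSTUB1 minus WT 6 passed, 3 higher and 3 lower, where 45.1% of all genes passed (23.5% higher and 21.7% lower). The median log2 difference of the members was −0.02, −0.32 and −0.22 in these 3 comparisons, beside 0.028, −0.0035 and 0.019 over all genes tested. The comparisons share libraries, and the genes were chosen with results of these data known, so the counts are a description.

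In 293T no group stood apart for TXNIP, and TXNIP and ARRDC3 were highest in replicate 3 of every group. TXNIP had 14.4, 13.0 and 16.9 CPM in replicates 1, 2 and 3 of V2084D, 11.3, 11.7 and 18.2 CPM in G2087E, and 8.02, 8.44 and 15.6 CPM in G2087R. It had 15.2, 13.1 and 33.6 CPM in K2025E, 15.6, 14.4 and 43.4 CPM in WT, and 12.3, 11.3 and 18.8 CPM in KO. Replicate 3 was the highest in 6 of 6 groups, and all 6 groups overlapped with their neighbours in the order of means. The order ran from WT (24.5 ± 16.4 CPM, SD, n = 3) over K2025E (20.6 ± 11.3), V2084D (14.7 ± 1.97), KO (14.2 ± 4.08) and G2087E (13.7 ± 3.86) to G2087R (10.7 ± 4.27).

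ARRDC3 in 293T had 13.7, 18.9 and 20.7 CPM in replicates 1, 2 and 3 of V2084D, 9.07, 10.2 and 21.8 CPM in G2087E, and 5.19, 4.28 and 20.3 CPM in G2087R. It had 19.5, 13.4 and 26.2 CPM in K2025E, 23.1, 22.2 and 47.2 CPM in WT, and 16.0, 15.4 and 27.7 CPM in KO. Replicate 3 was again the highest in 6 of 6 groups, and the lowest of the 18 libraries were G2087R replicates 1 and 2. ARID1A in these was near that of KO, whose own libraries had 15.4 to 27.7 CPM of ARRDC3. Any part of ARID1A in this was not tested. The WT mean of 30.9 CPM was the highest of all 9 groups, above the 20.6 CPM of V2084D labelled Huh7, although the lines were scaled separately. The WT libraries lay above all those of V2084D, G2087E and G2087R. ARRDC4 kept to 8.97 to 21.8 CPM over the 18 libraries, with replicate 3 the highest in 4 of 6 groups. ARRDC2 had its lowest library in replicate 3 in 4 of 6 groups, down to 5.73 CPM in G2087R against 17.7 and 18.8 CPM in its replicates 1 and 2. The labels do not say what a replicate number stands for.

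**Figure D3:**
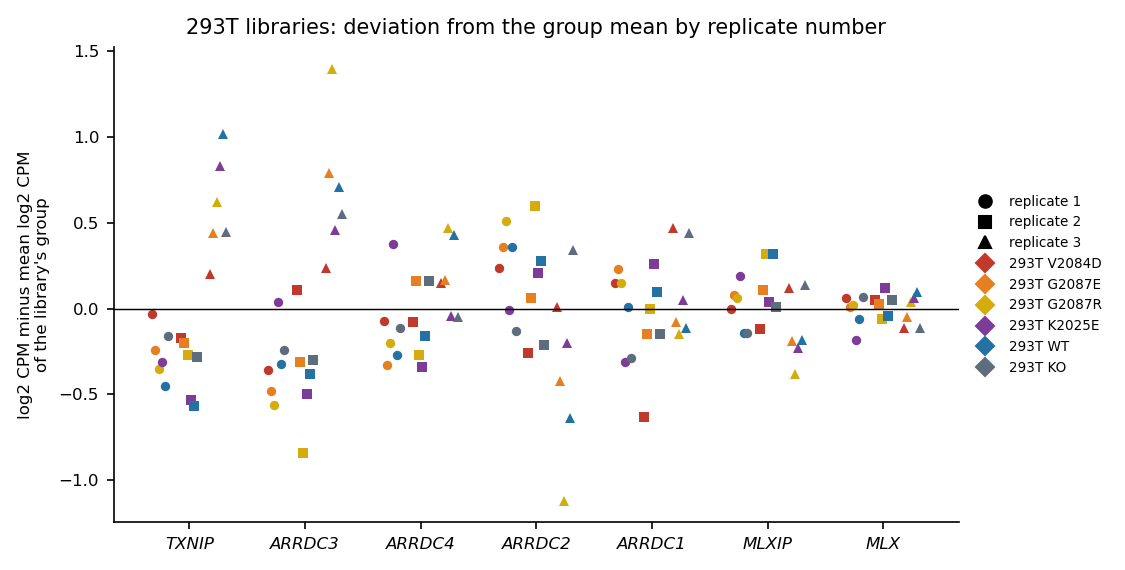
Deviation of each 293T library from the mean log2 CPM of its group for the 7 members, with replicate numbers as symbols and groups as colours. For TXNIP and ARRDC3 the triangles of replicate 3 lie above 0 in 6 of 6 groups, by up to 1.02 and 1.40, and the MLX points all lie close to 0.

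Of the 63 values in 293T (7 genes in 9 comparisons), 0 passed an adjusted p of 0.05 with edgeR and 1 passed with DESeq2. Without adjustment 4 of the 63 edgeR p-values were under 0.05. The share of all 23201 genes called was 12.9% in K2025E minus KO (7.17% higher and 5.72% lower), 0.00431% in G2087R minus WT and in K2025E minus WT, and 0.0% in the other 6 comparisons. The lowest unadjusted p-values belonged to G2087R minus WT, where ARRDC3 had a log2 difference of −1.64 (SE 0.50) and TXNIP one of −1.20 (SE 0.41), both with an edgeR adjusted p of 0.981. Without adjustment, 11.0% of all genes were under 0.05 in WT minus KO, 4.83% in V2084D minus KO, 5.66% in G2087E minus KO, 4.31% in G2087R minus KO and 28.3% in K2025E minus KO. Against WT the share was 2.01% for V2084D, 2.05% for G2087E, 4.45% for G2087R and 8.27% for K2025E. Without G2087R replicate 3, which leaves the libraries with little ARID1A, ARRDC3 was at −2.70 with an edgeR adjusted p of 0.0294. That value passes, where 18 of 24145 genes did. Replicate 3, the highest for ARRDC3 in every group, was dropped there from G2087R but kept in WT (47.2 CPM). Without G2087R replicates 1 and 2 ARRDC3 was at −0.60. Over its alternatives the adjusted p of ARRDC3 ran from 0.0294 to 1.0.

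For G2087E minus WT, ARRDC3 had a log2 difference of −1.17 (SE 0.49, edgeR unadjusted p = 0.0285, adjusted p = 1.0). For V2084D minus WT in 293T, TXNIP was at −0.73 (SE 0.41), ARRDC3 at −0.80 (SE 0.49) and ARRDC4 at 0.11 (SE 0.24), each with an edgeR adjusted p of 1.0. WT replicate 3 carried much of these values: without it TXNIP was at −0.03 and ARRDC3 at −0.36 in V2084D minus WT, and TXNIP was at 0.06 instead of 0.78 in WT minus KO. Without it TXNIP was also at −0.13 instead of −0.83 in G2087E minus WT and at −0.49 instead of −1.20 in G2087R minus WT, and ARRDC3 was at −0.73 and −1.19 there. That library also had 62916 CPM of ARID1A, against 5690 and 9285 CPM in WT replicates 1 and 2. V2084D replicate 3 had 114840 CPM of ARID1A, with 16.9 CPM of TXNIP and 20.7 CPM of ARRDC3. Any part of the ARID1A level in these values was not tested.

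In K2025E, MLX had 61.8, 76.4 and 73.1 CPM, against 58.1, 57.4 and 51.3 CPM in KO, and the libraries did not overlap. MLX of WT (61.3 to 68.4 CPM) and of G2087E (60.0 to 63.5 CPM) also lay above KO. MLXIP of K2025E (64.9 to 86.4 CPM) lay below KO (89.3 to 108.1 CPM) without overlap. So did ARRDC4, at 8.97 to 14.86 CPM in K2025E and 14.96 to 18.09 CPM in KO. The share of all genes that lay apart in this way was not counted. For MLX, the log2 difference of 0.34 (SE 0.13) had an edgeR adjusted p of 0.0971 and a DESeq2 adjusted p of 0.0162. It was 0.42 with an edgeR adjusted p of 0.035 without K2025E replicate 1, and 0.15 without K2025E replicates 2 and 3. With GC and length offsets it was 0.09. K2025E replicates 2 and 3 stood apart on the first principal component of 293T, at 104.3 and 66.6, with the other 16 libraries between −47.8 and 40.2. Over its alternatives the adjusted p of MLX ran from 0.0162 to 0.959. MLXIP had 64.9 to 120.1 CPM over the 18 libraries of 293T and log2 differences from −0.37 to 0.30 in the 9 comparisons. The log2 differences of ARRDC1 ran from −0.03 to 0.40, of ARRDC2 from −0.22 to 0.33 and of ARRDC4 from −0.51 to 0.14. The lowest edgeR adjusted p of these 4 genes was 0.206.

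The difference of V2084D minus WT was also compared between the lines in 1 fit of all 27 libraries, as Huh7 minus 293T. The marker genes did not bear out the liver label, so the lines here and below are lines by label only. It was 4.51 (SE 0.52) for TXNIP, 2.86 (SE 0.30) for ARRDC4, 1.82 (SE 0.60) for ARRDC3, −0.81 (SE 0.23) for MLXIP and −0.50 (SE 0.16) for MLX. ARRDC1 and ARRDC2 were at −0.41 (SE 0.30) and 0.16 (SE 0.43). Of the 7 genes, 4 passed (TXNIP and ARRDC4 higher, MLXIP and MLX lower), where 9.72% of 24546 genes did (5.5% higher and 4.21% lower). With any 1 of the 12 libraries compared left out, the count was 2 or 3. MLX passed without 293T V2084D replicate 3 or 293T WT replicate 3 and not without any 1 of the other 10, and MLXIP did not pass without any 1 of 5 libraries. ARRDC3 missed the threshold but passed under 6 of the 9 alternatives that leave out no single library. The lines differ in the level of ARID1A as well as in their label, since its V2084D libraries had 216 to 271 CPM under the Huh7 label and 42656 to 114840 CPM in 293T.

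**Figure D4:**
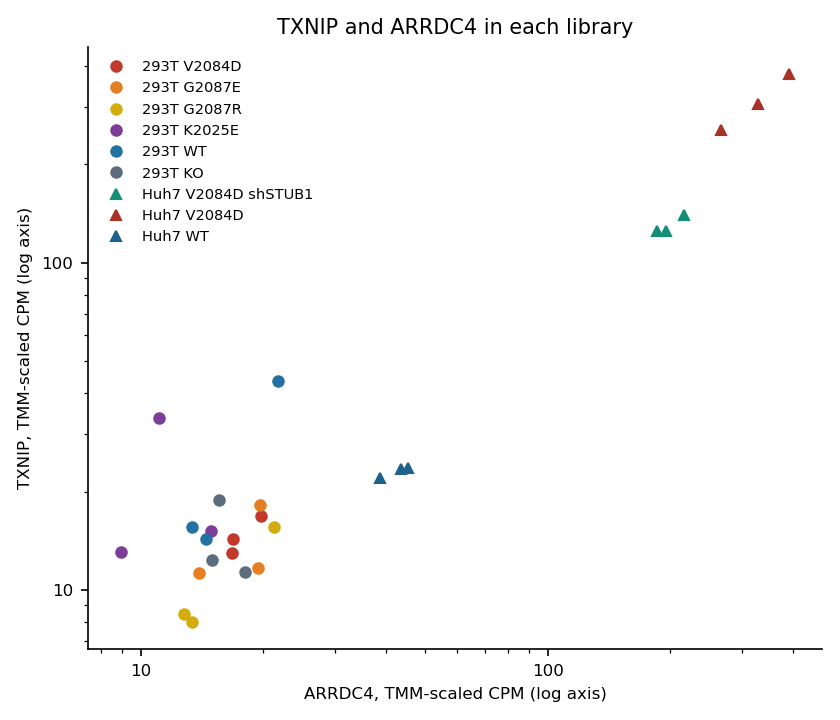
TXNIP against ARRDC4 in each library, both in TMM-scaled CPM on log axes, with triangles for the groups labelled Huh7 and circles for 293T. The 9 triangles fall into 3 separate clusters along a rising line, while the circles lie at 8.97 to 21.8 CPM of ARRDC4 with TXNIP from 8.02 to 43.4 CPM.

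Likeness to TXNIP was measured as Pearson's r of log2 CPM within each line, and genes were ranked by the smaller of the 2 values over 13754 genes outside the members. The 5 most alike were ARL6IP1 (0.887 over 18 libraries of 293T and 0.898 over 9 labelled Huh7), PRR11 (0.881 and 0.912), AKIRIN2 (0.878 and 0.892), DYRK4 (0.871 and 0.984) and CLK1 (0.865 and 0.870). The choice used the libraries labelled Huh7, so that all 5 were higher there in V2084D than in WT follows from it. In those libraries they differed with the knockdown. CLK1 had 56.4 to 63.1 CPM in V2084D shSTUB1, 79.7 to 86.2 CPM in V2084D and 48.5 to 58.8 CPM in WT, and V2084D was also the highest group for ARL6IP1 and DYRK4. PRR11 overlapped between V2084D shSTUB1 (46.9 to 52.4 CPM) and V2084D (50.7 to 51.4 CPM). AKIRIN2 was higher in V2084D shSTUB1 (90.1 to 95.6 CPM) than in V2084D (86.3 to 88.2 CPM). Among the members ARRDC3 was close to TXNIP in both lines (0.857 and 0.963). The values of ARRDC4 were 0.228 in 293T and 0.994 under the Huh7 label, and those of MLXIP were negative in both (−0.681 and −0.853). In 293T, ARL6IP1, AKIRIN2, DYRK4 and CLK1 were highest in replicate 3 of every group, as TXNIP was, and PRR11 in every group but V2084D and KO. The r values in 293T thus also follow the replicate number. Libraries of a group may share their cells, which the labels do not settle, and the 9 libraries labelled Huh7 fall into 3 clusters. These values therefore describe the libraries and carry no test.

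Genes of related pathways were read in 8 lists for the libraries labelled Huh7, with calls at an edgeR adjusted p of 0.05 over all genes. Over all genes 22.0% were higher and 20.0% lower in V2084D minus WT, and 10.8% were higher and 10.8% lower in V2084D shSTUB1 minus V2084D, and a list whose share lies near these does not stand out. The list called MLX network held MAX and some of the factors that pair with MLX or MAX, without the MYC genes. In it, 2 of 8 genes were higher and 1 was lower in V2084D than in WT. MXI1, a MAX partner that represses transcription, was higher by 0.97 (SE 0.07), MLXIPL by 0.45 (SE 0.094), and MAX fell by 0.62 on the log2 scale. With the STUB1 knockdown 4 were lower than in V2084D and 0 higher: MXI1 (−1.34), MXD1 (−0.90), MLXIPL (−0.48) and MXD4 (−0.27). MXD4 was not called with GC and length offsets or without V2084D replicate 1 or 3 or V2084D shSTUB1 replicate 1 or 3. MXI1 had 35.3 to 37.3 CPM in V2084D shSTUB1, 85.6 to 99.9 CPM in V2084D and 46.1 to 48.5 CPM in WT, so V2084D stood above both other groups.

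Other genes known as carbohydrate response targets did not share 1 direction. In V2084D minus WT, 5 of the 17 tested rose, 6 fell and 6 did not pass, with a median log2 difference of −0.02. Of the 5, 1 had 0 counts in all WT libraries, and the median was also −0.02 with that gene set to its lower bound. KLF10, a transcription factor, rose by 1.05 (SE 0.11), while the lipid synthesis enzymes SCD (−1.24), FASN (−1.26) and ACLY (−1.03) fell. SCD had 328 to 369 CPM in V2084D and 809 to 819 CPM in WT. With the knockdown 5 fell relative to V2084D and 1 rose, with a median of −0.18. Those with the smallest adjusted p were the glycolytic regulators PFKFB3 (−0.87) and HK2 (−0.78), RGS16 (−0.93) and KLF10 (−0.66). KLF10 had 57.9 to 66.1 CPM in V2084D shSTUB1, 83.0 to 110.6 CPM in V2084D and 45.5 to 51.9 CPM in WT, the same order as TXNIP. The 1 gene that rose was ELOVL6, and without 1 V2084D shSTUB1 library the count was 0 (replicate 1) or 2 (replicate 2).

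In the list of glucose transporters and hexokinases, which holds surface targets of TXNIP, 6 of 13 genes rose, 3 fell and 4 did not pass in V2084D minus WT (median 0.22). SLC2A1 (GLUT1), the main basal glucose transporter, rose by 0.62 (SE 0.078), SLC2A3 (GLUT3) by 1.05 and SLC2A12 by 1.3, and SLC2A6 fell by 1.26. With the knockdown 5 fell relative to V2084D and 1 rose (median −0.23), among them SLC2A3 (−1.03), SLC2A14 (−1.05), HK1 (−0.61) and HK2 (−0.78). SLC2A3 had 51.1 to 63.5 CPM in V2084D shSTUB1, 111.1 to 127.2 CPM in V2084D and 56.7 to 57.1 CPM in WT. SLC2A14 is a near copy of SLC2A3, and how the authors' counting split reads between them is not given in the sources used here. The 1 gene that rose, SLC2A10, was no longer called without V2084D replicate 2 or 3 or V2084D shSTUB1 replicate 1.

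In the thioredoxin system, the redox pathway whose central protein TXNIP binds, 1 of 15 genes rose and 6 fell in V2084D minus WT (median −0.22). TXNRD3, a thioredoxin reductase, rose by 1.11 (SE 0.075), and the peroxiredoxins PRDX1 (−0.46) and PRDX2 (−0.56) and the sulfiredoxin SRXN1 (−0.56) fell. Thioredoxin itself (TXN) had 232 to 288 CPM in V2084D and 284 to 312 CPM in WT and did not pass (−0.22, SE 0.11, edgeR adjusted p = 0.132). With the knockdown 5 rose relative to V2084D and 0 fell (median 0.02), led by TXNRD2 (0.51), GLRX2 (0.55) and TXN2 (0.41). The 5 were 3 or 4 with any 1 of the libraries compared left out, and 3 without V2084D replicate 1 or 2 or V2084D shSTUB1 replicate 2. The 0 was 1 without V2084D replicate 3 or V2084D shSTUB1 replicate 2. With no filter or only the groups compared 3 rose, and with GC and length offsets 2 fell.

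**Figure D5:**
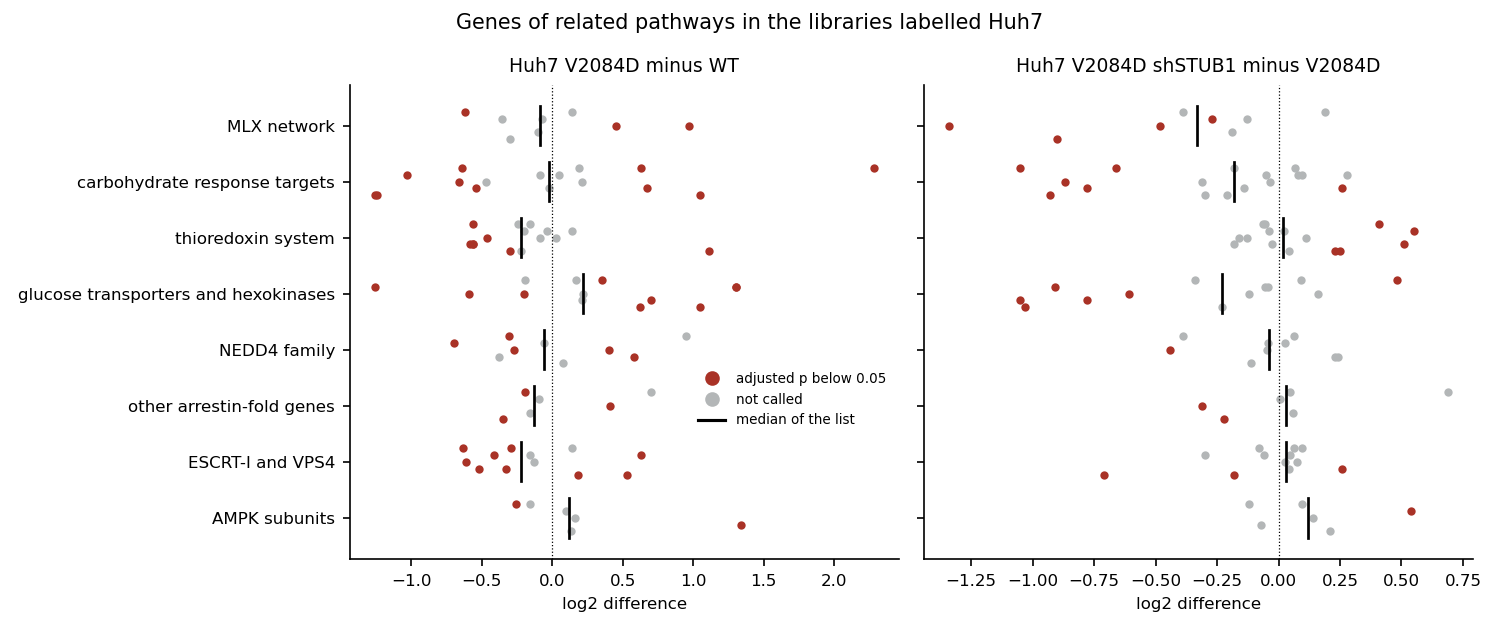
Log2 differences of single genes of the 8 lists in V2084D minus WT (left) and V2084D shSTUB1 minus V2084D (right) of the libraries labelled Huh7, red where the edgeR adjusted p was below 0.05, with the list median as a bar. A gene with 0 counts in all libraries of a group is not drawn (1 gene, left panel). The medians lie between −0.22 and 0.22 on the left and between −0.33 and 0.12 on the right.

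Among the partners of the alpha-arrestins, 2 of 9 ubiquitin ligases of the NEDD4 family rose and 3 fell in V2084D minus WT, among them NEDD4 (0.58), ITCH (0.40) and SMURF2 (−0.70). The 3 were 1 or 2 with any 1 of the libraries compared left out, and 1 without WT replicate 1 or V2084D replicate 3. With the knockdown 1 fell, WWP1 (−0.44). The list of ESCRT-I and VPS4, which ARRDC1 recruits for budding, has 12 genes, among them the ESCRT accessory gene PDCD6IP (ALIX). Of the 12, 3 rose and 6 fell in V2084D minus WT, among them VPS37A (0.63), VPS37B (−0.61), VPS4A (−0.63) and TSG101 (−0.52). The 3 were 1 without WT replicate 3 or V2084D replicate 1. With the knockdown 1 rose and 2 fell. With no filter, the replicate number as a block, GC and length offsets or only the groups compared, 0 rose. Without V2084D replicate 1, 2 or 3 or V2084D shSTUB1 replicate 1 or 2, 0 rose, and without any 1 of the 6 libraries 1 fell.

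Of the 6 other arrestin-fold genes tested, 1 rose (ARRB2, 0.41) and 2 fell in V2084D minus WT, led by VPS26B (−0.35, or −0.20 with GC and length offsets). The 2 were 1 without WT replicate 2 or V2084D replicate 2 or 3. With the knockdown 0 rose and 2 fell, ARRB2 (−0.31) and VPS26B (−0.22). These 2 were 0 without V2084D replicate 1 or V2084D shSTUB1 replicate 1, and 1 without V2084D replicate 2, with no filter, with the replicate number as a block or with GC and length offsets. Of the 6 subunits tested of AMPK, the energy-sensing kinase that phosphorylates TXNIP, PRKAB2 rose by 1.34 (SE 0.083) in V2084D minus WT and 1 fell, which was 0 without WT replicate 1 or 2 or V2084D replicate 3. With the knockdown PRKAA2 rose by 0.54 and 0 fell.

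Of the 9 comparisons in 293T, these lists had calls in K2025E minus KO only, where 7 of 15 genes of the thioredoxin system rose and 0 fell, among them TXN (0.75, SE 0.20, edgeR adjusted p = 0.0236), TXN2 (0.78), PRDX2 (0.82) and PRDX5 (1.19), where 7.17% of all genes were higher and 5.72% lower. With GC and length offsets 3 rose, and TXN2 (0.20), PRDX2 (0.22) and PRDX5 (0.27) did not pass. With only the groups compared 1 rose, and TXN had an edgeR adjusted p of 0.0835. Over its alternatives the adjusted p of TXN ran from 0.00328 to 0.944. TXN had 204 to 335 CPM in K2025E and 124.6 to 189 CPM in KO. The 7 were 0 without K2025E replicate 2, the 0 was 1 without K2025E replicate 1, and the 7 were 1 or 2 without K2025E replicate 3, KO replicate 1 or KO replicate 2. TXNIP itself had a log2 difference of 0.54 (SE 0.41, edgeR adjusted p = 0.429) in that comparison, and −0.02 without K2025E replicate 3. The thioredoxin system was described as the list with the most calls. Carbohydrate response targets had 2 of 18 genes higher and 3 lower, and the NEDD4 family had 2 of 9 lower. AMPK had 1 of 6 subunits higher and 1 lower, and ESCRT-I and VPS4 had 1 of 12 higher. The MLX network had 1 of 8 lower, and glucose transporters and hexokinases had 1 of 13 lower. Without K2025E replicate 2 all these counts were 0.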

How the data were processed

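RNA from 27 samples was sequenced, 3 in each of 9 groups. Per the labels, RNA was taken up in Trizol, and libraries were built from total RNA with a NEBNext Ultra II kit. The authors deposited 1 table of raw counts per gene for each cell line, on GRCh38 per the submitters' processing notes, which also name edgeR. The aligner, counter, annotation release and strand setting are not given in the sources used here. All columns matched a sample and held only whole numbers.

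Counts were fitted in R 4.3.3 with edgeR 4.0.16 (TMM scaling, filterByExpr with a minimum count of 10 and total of 15, quasi-likelihood F test), with all groups of a line in 1 fit: 23201 genes in 293T (biological coefficient of variation 30.9%), 22510 in Huh7 (24.8%) and 24546 in the joint fit (30.3%). Calls used a threshold of 0.05 on p-values adjusted by Benjamini and Hochberg's method, comparison by comparison, across every gene tested. SE is the absolute log2 difference over the square root of F. CPM were scaled within each line, so levels are compared between lines only as description. The fit was also run on simulated independent counts for WT minus KO in 293T and V2084D minus WT labelled Huh7. That simulation held no outlying libraries and no effect of the replicate number, so it does not speak to these.

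The members and lists were chosen with earlier results of these data known. Named are the 7 members, ARID1A, STUB1, MLXIPL, up to 4 genes per list and comparison by adjusted p, and 5 genes most like TXNIP among those with a mean log2 CPM of at least 1. ELOVL6, SLC2A10, TXN, PSMC3IP, ARRDC3-AS1 and the marker genes are named beyond that rule, with their values known. Positions are from GENCODE 29 (GRCh38). Replicate numbers counted as pairs where, for each of the 3 numbers, libraries of both groups deviated together (r above 0.1 over 14333 genes in 293T). This held for G2087E minus WT (lowest 0.148) and G2087R minus WT (lowest 0.344), a hint from the data only. The alternatives tried were DESeq2 1.42.0, RLE scaling, no filter, 1 CPM in 3 libraries, a replicate block, only the groups compared, GC and length offsets, and leaving out libraries.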

Additional observations from a re-analysis of the deposited data

Results flagged for a closer look

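The difference of V2084D minus WT differed between the lines, as labelled, for 4 of the 7 genes by the interaction term of the joint edgeR fit (Huh7 minus 293T). The marker genes did not bear out the liver label, so a difference between cell types is not shown. Over all 24546 genes 9.72% passed, 5.5% higher and 4.21% lower. TXNIP differed by 4.51 on the log2 scale and ARRDC4 by 2.86, and all 3 V2084D libraries labelled Huh7 lay above all 3 WT libraries for both genes. MLXIP differed by −0.81 and MLX by −0.50, where all 3 V2084D libraries labelled Huh7 lay below all 3 WT libraries. The share of all genes that lay apart in this way was not counted. In V2084D minus WT of the libraries labelled Huh7, 42.0% of 22510 genes passed. The call of MLX was lost without any 1 of 10 libraries, with no filter, with the replicate number as a block and without G2087R replicates 1 and 2, and that of MLXIP without any 1 of 5 libraries. The genes were chosen with results of these data known, so the result is not independent evidence. The V2084D libraries had 216 to 271 CPM of ARID1A under the Huh7 label and 42656 to 114840 CPM in 293T, and its part in the difference was not tested.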

How the results depend on the processing

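Of the 13 counts of members called, those of K2025E minus KO, G2087R minus WT and the comparison between the lines moved by over 1.5 times under some alternative. DESeq2 called 1 member in K2025E minus KO. With each library left out, the count was 0 to 1 there, 0 to 1 in G2087R minus WT and 2 to 3 between the lines, where 4 were called. MLXIP there was not called without any 1 of 293T V2084D replicate 3, 293T WT replicate 1 or 3, Huh7 WT replicate 3 or Huh7 V2084D replicate 1. MLX was not called without any 1 of 10 libraries, nor with no filter, and its log2 difference stayed at −0.57 to −0.47.

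GC and length offsets turned the sign of 4 small differences: ARRDC1 in K2025E minus KO (−0.0084), ARRDC2 in Huh7 V2084D minus WT (0.14) and V2084D shSTUB1 minus WT (0.04), and MLXIP in V2084D shSTUB1 minus V2084D (0.05). Left-out libraries turned the sign of ARRDC2 in Huh7 V2084D minus WT (−0.08 to 0.01) and between the lines (−0.03 to 0.40), MLX in V2084D shSTUB1 minus V2084D (−0.13 to 0.08), ARRDC4 in 293T V2084D minus WT (−0.02 to 0.35) and TXNIP in K2025E minus KO (−0.02 to 0.78). The cause was not tested. With the replicate number as a block, no count of members moved: 6, 4 and 6 were called in the 3 comparisons labelled Huh7 and 0 in each of 293T. Between the lines the block called ARRDC3 (1.71) and not MLX (−0.50), and in G2087R minus WT it gave ARRDC3 at −1.82 (adjusted p 0.0837).

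Over all genes, K2025E minus KO had 2989 calls, 436 with only the groups compared, 4579 with DESeq2, 1 without K2025E replicates 2 and 3, and 1 to 5270 with each library left out. The comparison between the lines had 2385 calls and 1673 to 2236 with each library left out, and 1723 to 4322 under the others. The other 293T comparisons had 0 or 1 and at most 80, except K2025E minus WT with 0 to 1048 on leaving out a library. A fit that leaves 1 library in a group takes its spread from the other groups. In V2084D shSTUB1 minus V2084D there were 4850 calls over all genes and 2887 to 4505 with each library left out. ARRDC2 in V2084D shSTUB1 minus WT was called only with the filter of 1 CPM. The biological coefficient of variation of 30.9% in 293T and 24.8% in the libraries labelled Huh7, with 3 libraries a group, limits these fits.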
